A study of Homo sapiens with 15 samples.

Results

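GNE-781, an inhibitor of the bromodomains of CBP and p300, was compared with the solvent DMSO in the human multiple myeloma line MM.1S. The comparison used 6 of the 15 libraries of the series, chosen by their labels: 3 libraries of cells given GNE-781 at 100 nM for 6 h and 3 of cells given DMSO for 6 h. Where a control with no DMSO library was needed, GNE-781 was also set beside the combination of A-485 and GNE-781 and beside A-485, each compound again at 100 nM for 6 h, with 3 libraries a group. The titles of all 3 combination libraries name GNE-781, while the treatment field of replicates 2 and 3 gives the compound another number, and the titles were followed. All groups were the same line, grown in RPMI with serum, so the values describe 1 line, 1 dose and 1 time, and nothing in the labels says that the libraries of a group came from separate cultures. RNA was read at the 3′ ends of transcripts with ERCC controls added at lysis.

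CBP (the gene CREBBP) and p300 (EP300) are paralogous coactivators that are recruited to enhancers and promoters by transcription factors and acetylate histones there. Each has a catalytic acetyltransferase domain, which A-485 inhibits, and a bromodomain, a pocket that binds acetylated lysine, which GNE-781 occupies. Plasma cells and myeloma cells depend on a network of transcription factors that includes IRF4 and PRDM1, and MM.1S cells carry a translocation that puts MAF under an immunoglobulin enhancer.

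The libraries held 16932766, 13163751 and 17208967 reads with GNE-781 and 17306042, 15706895 and 14985578 with DMSO, as recovered from the deposited values. Levels are given as normalized read counts, which are reads divided by 1 factor per library. The DMSO libraries were less alike than the GNE-781 libraries. Mitochondrially encoded genes took 14.9%, 15.7% and 14.4% of reads with GNE-781, against 23.1%, 19.7% and 16.4% with DMSO. Thinned to the depth of the shallowest of the 15 libraries, 20547, 19645 and 19784 genes had a read with GNE-781, against 16274, 17376 and 19678 with DMSO. In both measures DMSO replicate 3 lay nearest to the GNE-781 libraries, and the comparison with DMSO was also computed against DMSO replicate 3 alone. The fold change against that library is printed for some genes only. The comparison with DMSO replicate 3 takes the spread from the other libraries of the fit and assumes that the lone DMSO library varies like them. In the main fit, each SE and limma p-value takes the spread of a gene from all 5 groups together. It assumes that the DMSO libraries, which were less alike, vary like the others. The part that these 2 measures play in any difference was not tested.

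The cells matched their label. All 10 plasma cell markers passed the filter on low values, and together they took 2556 to 2804 CPM (a gene's reads scaled to the size of its library) with GNE-781, against 3897 to 4430 with DMSO. Summed markers of other lineages were far lower. With GNE-781, those of B cells took 10.8 to 11.9 CPM, of T and NK cells 7.03 to 9.95, of myeloid cells 2.89 to 3.43, of fibroblasts 12.6 to 14.7, of epithelium 1.14 to 1.98 and of erythroid cells 3.66 to 4.79. With DMSO the same lists took 12.9 to 14.4, 8.73 to 14.96, 2.66 to 5.61, 15.1 to 22.7, 0.347 to 1.27 and 4.85 to 9.01 CPM. CD3D, NKG7, PRF1, CSF1R, FCGR3A, S100A8, KRT5, KRT19, ALAS2, HBA2, HBG1 and HBG2 had no read in any of the 15 libraries.

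Of 16104 genes tested, 1260 (7.82%) rose with GNE-781 and 1419 (8.81%) fell at a limma adjusted p below 0.05, 16.6% in all. Among them 380 (2.36%) rose and 342 (2.12%) fell by at least 2 fold. The 3 GNE-781 libraries all lay above the 3 DMSO libraries for 2444 genes (15.2%) and all lay below them for 2640 (16.4%). More falls than rises came from highly expressed genes. When genes were divided by mean level into 3 bins of 5368, 244, 512 and 504 rose and 105, 517 and 797 fell in the low, middle and high bins. Leaving out 1 library moved the rises more than the falls. There were 618 rises and 849 falls without GNE-781 replicate 1, 676 and 973 without GNE-781 replicate 2, and 769 and 1232 without GNE-781 replicate 3. With the first DMSO library left out there were 775 rises and 1319 falls, with the second left out 631 and 976, and with DMSO replicate 3 left out 2375 and 1314. Fewer cells of a kind and less RNA per cell cannot be told apart in these bulk libraries, and every change below is relative to the other genes of a library.

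**Figure D1:**
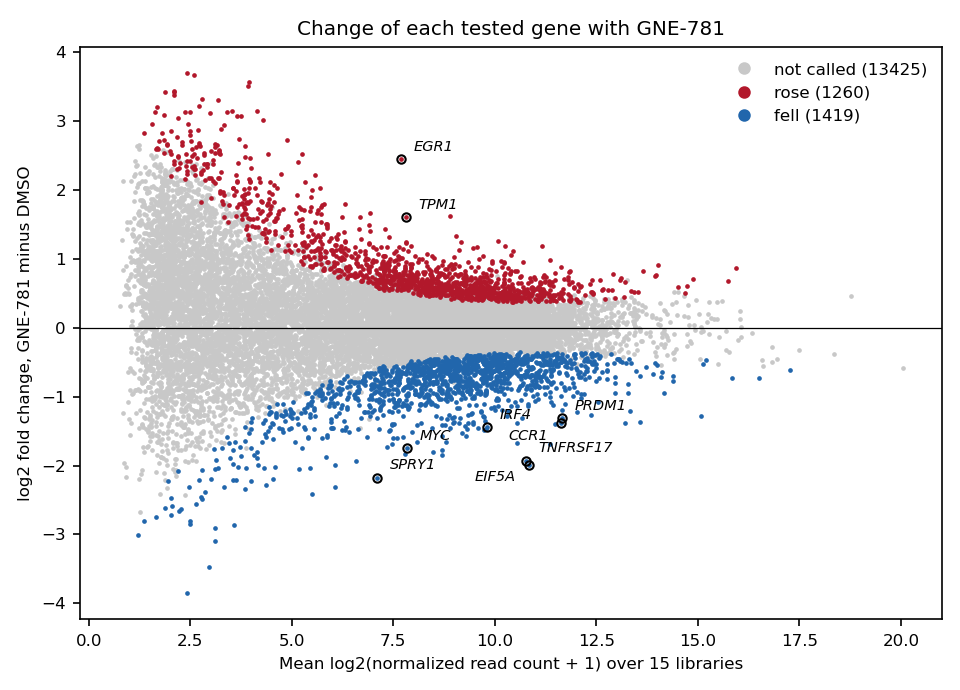
Each point is 1 of the 16104 genes tested, with its mean log2(normalized read count + 1) over 15 libraries on the x axis and its log2 fold change, GNE-781 minus DMSO, on the y axis. Red points are the 1260 genes that rose and blue points the 1419 that fell, and circles mark 9 genes described in the text, of which EGR1 and TPM1 lie above 0 and the others below.

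More of the falls than of the rises were called again when DMSO replicate 3 was the only control. Against that library alone 883 genes were called (5.48%), 159 higher (0.987%) and 724 lower (4.5%), of which 120 (0.745%) and 263 (1.63%) by at least 2 fold. Of the 1419 falls 625 (44.0%) were called again, and of the 1260 rises 113 (8.97%), which makes 3.88% and 0.702% of all genes tested and 4.58% together. No gene called one way against all DMSO libraries was called the other way against DMSO replicate 3. The direction was the same for 1417 of the 1419 falls and 1212 of the 1260 rises. Both comparisons share the GNE-781 libraries and DMSO replicate 3, so such agreement is in large part built in. The median log2 fold change of the falls was −0.73 against all DMSO libraries and −0.76 against DMSO replicate 3, whereas that of the rises was 0.73 and 0.44. The median over all genes tested was itself 0.07 against all DMSO libraries and −0.11 against DMSO replicate 3. With TMM scaling, which centres the libraries on each other by a trimmed mean and was chosen here after seeing the data, the median against DMSO replicate 3 was 0.02. Under it 474 of the falls (33.4%) and 316 of the rises (25.1%) were called again, of 529 genes lower (3.28%) and 425 higher (2.64%), 5.92% in all. DMSO replicate 3 was the DMSO library nearest to GNE-781 for 940 of the 1260 rises (74.6%) and 480 of the 1419 falls (33.8%). Without each of the 6 libraries in turn, 368 of the rises and 707 of the falls kept their call every time.

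**Figure D2:**
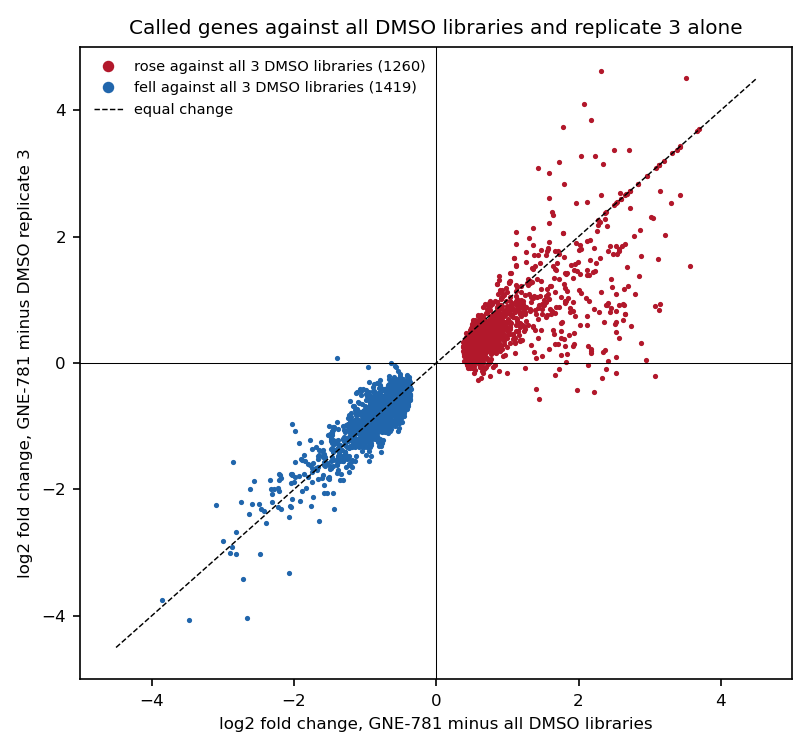
Log2 fold changes of the 1260 genes that rose (red) and the 1419 that fell (blue) with GNE-781, against all 3 DMSO libraries on the x axis and against DMSO replicate 3 alone on the y axis. The dashed line marks equal change. The falls lie along the line (medians −0.73 and −0.76), and many rises lie below it (medians 0.73 and 0.44).

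Receptors of the plasma cell surface were among the largest falls. The gene lists used here and below were chosen with earlier results of these data known, so their shares of called members are descriptions. Of 31 tested surface receptors and antigens of myeloma cells, 13 fell (41.9%) and 1 rose (3.23%), beside 8.81% and 7.82% of all genes tested. The median log2 fold change of the list was −0.71 beside 0.07 over all genes tested. Against DMSO replicate 3 alone 10 fell and 0 rose, 9 of them among the 13. TNFRSF17, the B cell maturation antigen through which plasma cells receive survival signals from BAFF and APRIL, had normalized read counts of 1634, 1294 and 1840.5 in the GNE-781 libraries, against 5714, 6948 and 5409 in the DMSO libraries. The groups were far apart, with the highest GNE-781 library well below the lowest DMSO library. Its log2 fold change was −1.93 ± 0.15 (SE; limma adjusted p = 5.8e-10), and −1.78 against DMSO replicate 3 (adjusted p = 1.5e-05). TNFRSF13B, which encodes TACI, the second receptor for these ligands, had 1336, 1141 and 1553 in the GNE-781 libraries, against 3991, 4428 and 4322 in the DMSO libraries. It fell by as much against DMSO replicate 3 (−1.70, adjusted p = 9.4e-06) as against all DMSO libraries (−1.67 ± 0.13, limma adjusted p = 5.8e-10).

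SDC1, the heparan sulfate proteoglycan CD138 by which plasma cells are recognised, had 3255, 2892 and 3440.1 in the GNE-781 libraries, against 6254, 6976 and 7369 in the DMSO libraries. CD70, the ligand of CD27, had 1194, 1397 and 1429.7 in the GNE-781 libraries, against 2724, 3401 and 3907 in the DMSO libraries, and IL6R, the receptor chain that binds the myeloma growth factor interleukin 6, had 2268, 2253 and 2232 in the GNE-781 libraries, against 4360.0, 3843 and 5881 in the DMSO libraries. In each of these 3 genes the groups did not overlap, and the fold changes were −1.10 ± 0.12, −1.31 ± 0.17 and −1.04 ± 0.14 (limma adjusted p = 6.1e-07, 5.5e-06 and 5.8e-06). DMSO replicate 3 was the highest library in all 3, so the falls were larger against it, at −1.21, −1.55 and −1.39 (limma adjusted p = 1.3e-04, 3.7e-04 and 2.7e-05). SELPLG, a selectin ligand used in homing to bone marrow, also fell (−0.86 ± 0.15, limma adjusted p = 1.5e-04), with 3772, 3492 and 4153 with GNE-781, against 6200.3, 6429 and 8259 with DMSO. JCHAIN and CD38 were not called. JCHAIN, the joining chain of secreted antibodies, had 15095, 17134 and 17754 with GNE-781, against 18640.4, 19612 and 20619 with DMSO (−0.24 ± 0.15, limma adjusted p = 0.3), and CD38, a surface enzyme targeted in myeloma, had 730.2, 801 and 779 with GNE-781, against 913, 800.4 and 1152 with DMSO (−0.30 ± 0.15, adjusted p = 0.19).

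**Figure D3:**
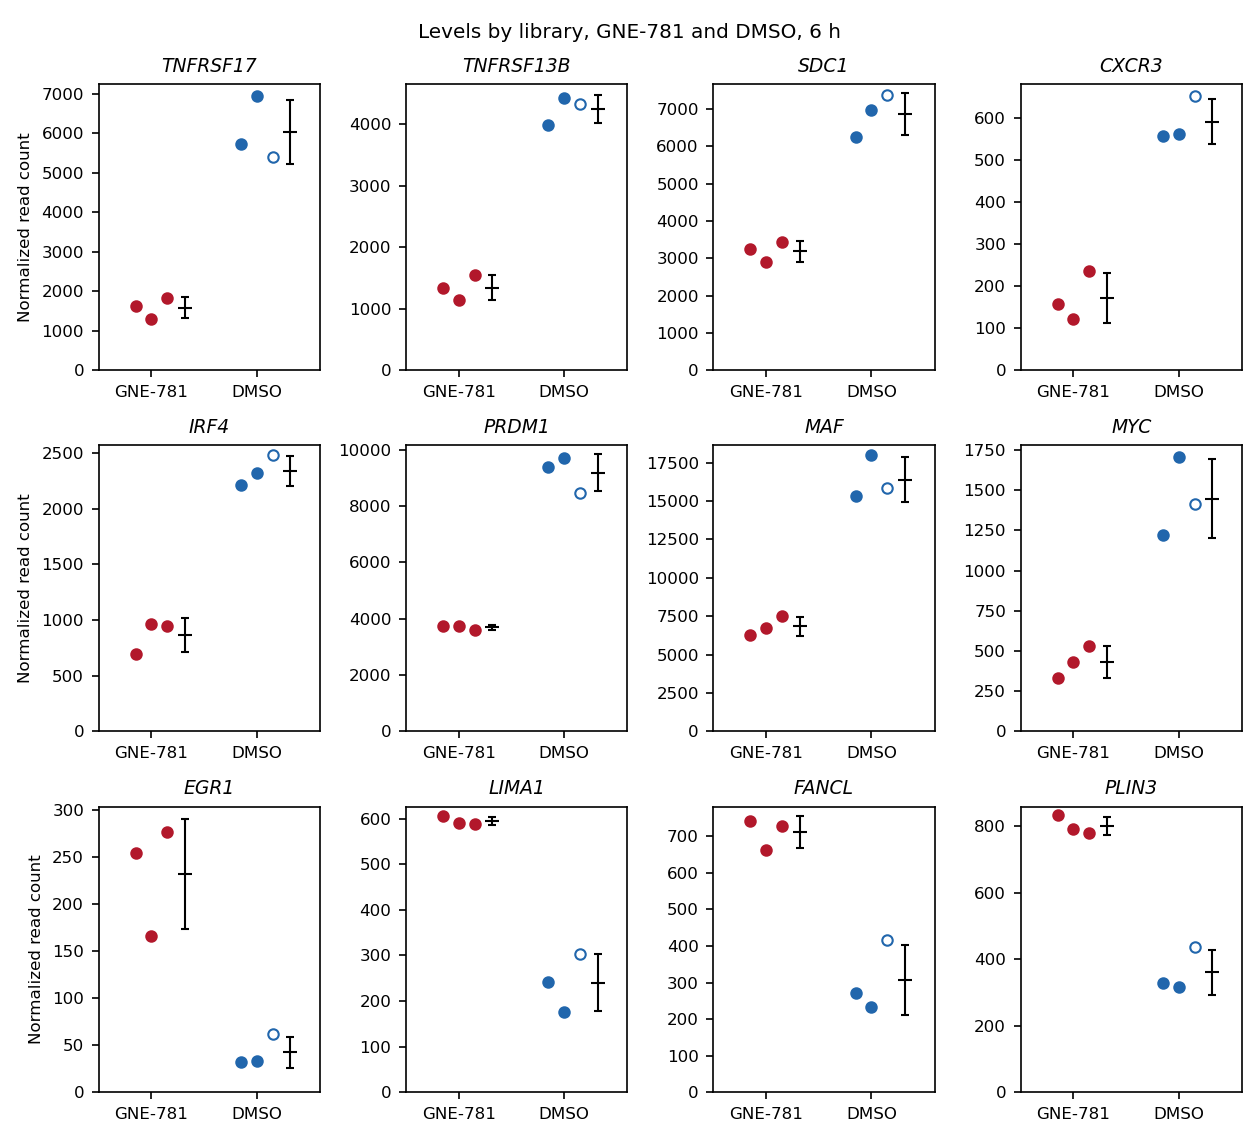
Normalized read counts of 12 genes in each library, GNE-781 (red) left of DMSO (blue, with DMSO replicate 3 as an open circle). Bars give the mean and SD of 3 libraries. In every panel the groups do not overlap. In the rises of the bottom row DMSO replicate 3 is the highest DMSO library, as in EGR1 with 61.9 against 32.7 and 33.7.

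Chemokine receptors and integrins, which guide plasma cells to bone marrow and hold them there, moved downward where they were called. Of 14 tested, 6 fell and 0 rose, with a median of −0.61, and the same 6 fell against DMSO replicate 3 alone. Against all DMSO libraries the falls made up 42.9% of the list, beside 8.81% of all genes tested. CXCR3, a receptor for interferon-induced chemokines, had 157, 121 and 237 in the GNE-781 libraries, against 556, 562 and 652 in the DMSO libraries. The highest GNE-781 library was below the lowest DMSO library. The log2 fold change was −1.83 ± 0.21 (limma adjusted p = 6.3e-07; −1.97 against DMSO replicate 3, adjusted p = 3.1e-04). CCR1, a receptor for CCL3 that myeloma cells express, was more abundant, with 3067, 3139.6 and 3392 in the GNE-781 libraries, against 7681, 8024 and 9406 in the DMSO libraries. Its log2 fold change was −1.38 ± 0.13 (limma adjusted p = 5.4e-08; −1.56 with DMSO replicate 3 as control, adjusted p = 1.3e-05). CCR2, the receptor of CCL2, was scarce, with 48.8, 40.4 and 55.4 with GNE-781, against 122, 124 and 201 with DMSO (−1.58 ± 0.38, limma adjusted p = 0.0042). ITGA4, the α chain of the integrin VLA-4 that binds VCAM1 on stroma, had 662, 780.4 and 643 with GNE-781, against 1091, 1217 and 1423 with DMSO (−0.83 ± 0.16, limma adjusted p = 6.9e-04). The integrin ITGAL fell too (−0.90 ± 0.16, limma adjusted p = 2.9e-04). CXCR4, the receptor for CXCL12, had 422, 382 and 413 with GNE-781, against 527, 436 and 549 with DMSO (−0.31 ± 0.16, limma adjusted p = 0.19).

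Called transcription factors of the plasma cell and myeloma program were all lower with GNE-781. This list too was chosen with earlier results of these data known. Of 36 tested, 18 fell (50%, beside 8.81% of all genes tested), 0 rose (beside 7.82%) and 18 were not called, with a median of −0.57. Against DMSO replicate 3 alone 17 fell and 0 rose, 15 of them among the 18. IRF4, on which myeloma cells depend for survival, had 691, 962 and 946 in the GNE-781 libraries, against 2211, 2318 and 2476 in the DMSO libraries. Its log2 fold change was −1.44 ± 0.19 (limma adjusted p = 6.7e-06), and −1.53 against DMSO replicate 3 (adjusted p = 0.0021). PRDM1, the repressor BLIMP1 that fixes plasma cell identity, had 3728, 3749 and 3593 in the GNE-781 libraries, against 9387, 9718 and 8465 in the DMSO libraries. The 3 GNE-781 libraries differed little among themselves, and the fall was −1.31 ± 0.13 (limma adjusted p = 1.3e-07; −1.20 against DMSO replicate 3, adjusted p = 3.9e-04).

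POU2AF1, the coactivator OCA-B that joins OCT factors on immunoglobulin promoters, had 975, 1179 and 1224 in the GNE-781 libraries, against 2517, 2565 and 3147 in the DMSO libraries. Its partner POU2F2 (OCT2) fell as well (−0.97 ± 0.15, limma adjusted p = 4.0e-05), with 332, 299 and 329.5 with GNE-781, against 609, 544 and 750.1 with DMSO. ARID5B, a DNA binding factor, had 424, 402 and 397 in the GNE-781 libraries, against 1105, 921 and 1057 in the DMSO libraries (−1.33 ± 0.16, limma adjusted p = 1.7e-06). MAF, the translocated oncogene, had 6262, 6753 and 7482 in the GNE-781 libraries, against 15296, 18021 and 15865 in the DMSO libraries. MAF stayed abundant in all GNE-781 libraries, and its fall was −1.26 ± 0.14 (limma adjusted p = 6.4e-07; −1.22 against DMSO replicate 3, adjusted p = 6.1e-04). Of 15 tested genes of the list of MAF and its targets 8 fell and 1 rose, and 5 fell and 0 rose against DMSO replicate 3. Against all DMSO libraries the falls made up 53.3% of that list and the rise 6.67%, beside 8.81% and 7.82% of all genes tested. Smaller falls came in the B lineage factors MEF2C (−0.63 ± 0.14), TCF4 (−0.58 ± 0.12), KLF13 (−0.77 ± 0.15), BHLHE41 (−0.93 ± 0.14) and IKZF1 (−0.57 ± 0.14), with limma adjusted p from 3.0e-05 to 0.0059. All 5 were also called lower against DMSO replicate 3. XBP1, which drives the secretory expansion of plasma cells, had 6337, 6380.3 and 7197 with GNE-781, against 10336, 10899 and 9792 with DMSO (−0.64 ± 0.13, limma adjusted p = 0.0013), but its call was not kept against DMSO replicate 3 (−0.56, adjusted p = 0.068).

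MYC, the oncogenic regulator of growth, had 334, 433 and 533 in the GNE-781 libraries, against 1221, 1709 and 1413 in the DMSO libraries. All 3 GNE-781 libraries lay below all DMSO libraries, and the spread in both groups was wide. The log2 fold change was −1.75 ± 0.33 (limma adjusted p = 5.3e-04), and −1.73 against DMSO replicate 3 (adjusted p = 0.04), a call that was lost when TMM scaling was added (−1.60, adjusted p = 0.075). Of the 13 tested genes of the MYC and MAX network 3 fell (23.1%) and 0 rose, beside 8.81% and 7.82% of all genes tested. Of 53 tested genes of ribosome biogenesis and other MYC targets 13 fell and 1 rose, with a median of −0.29, and 9 fell and 0 rose against DMSO replicate 3. Against all DMSO libraries the falls made up 24.5% of these genes and the rise 1.89%. PPAN, an assembly factor of the large ribosomal subunit for which reads of a readthrough transcript with P2RY11 could be counted too, had 308, 387 and 411 with GNE-781, against 906, 983 and 782 with DMSO (−1.28 ± 0.17, limma adjusted p = 4.9e-06). RRP9, a protein of the U3 small nucleolar particle, had 378, 391 and 418 with GNE-781, against 826, 864 and 747 with DMSO (−1.03 ± 0.14, limma adjusted p = 1.1e-05), and both were called against DMSO replicate 3 (adjusted p = 0.0054 and 0.0057). SLC7A5, the large neutral amino acid transporter, had 713, 796 and 817 with GNE-781, against 1947, 2121 and 1894 with DMSO (−1.36 ± 0.17, limma adjusted p = 1.6e-06; −1.29 against DMSO replicate 3, adjusted p = 0.0019). The count of called members of ribosome biogenesis was 9 without DMSO replicate 2, 6 without GNE-781 replicate 1 and 9 without GNE-781 replicate 2.

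Signaling genes downstream of the B cell receptor fell in part. Of 24 tested, 7 fell and 1 rose, and against DMSO replicate 3 alone 6 fell and 0 rose. Against all DMSO libraries the falls made up 29.2% of the list and the rise 4.17%, beside 8.81% and 7.82% of all genes tested. PTK2B, a kinase of the focal adhesion kinase family, had 1892, 1895 and 2449.7 in the GNE-781 libraries, against 6969, 6525 and 6513 in the DMSO libraries. Its log2 fold change was −1.69 ± 0.13 (limma adjusted p = 5.8e-10), nearly the same against DMSO replicate 3 (−1.66, adjusted p = 9.4e-06). BLNK, the linker that passes the signal of the receptor to phospholipase C, had 248, 229.6 and 233 in the GNE-781 libraries, against 495, 574 and 557 in the DMSO libraries (−1.19 ± 0.18, limma adjusted p = 3.4e-05). PTPN6, the phosphatase SHP-1 that restrains receptor signaling, fell too, with 518, 420.0 and 494 with GNE-781, against 1096, 1094 and 1369 with DMSO (−1.31 ± 0.15, limma adjusted p = 6.3e-07). Both were called against DMSO replicate 3 (limma adjusted p = 0.004 and 1.0e-04).

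In the NF-kB list, 8 of 32 tested genes fell and 3 rose, and against DMSO replicate 3 the same 8 fell and 0 rose. Against all DMSO libraries the falls made up 25% of the list and the rises 9.38%, beside 8.81% and 7.82% of all genes tested. The share of rises was thus near that of all genes. NFKB2, the precursor of the p52 subunit, had 726, 719.8 and 671 in the GNE-781 libraries, against 2063, 2324 and 1606 in the DMSO libraries. DMSO replicate 3 was the lowest of its DMSO libraries, and the fall was −1.48 ± 0.15 (limma adjusted p = 1.2e-07) against all of them and −1.19 against replicate 3 (adjusted p = 6.1e-04). TNFAIP3, the ubiquitin editing inhibitor A20, had 991, 1311 and 1097 with GNE-781, against 2148, 2326 and 2486 with DMSO (−1.04 ± 0.15, limma adjusted p = 1.3e-05), and BIRC3, the inhibitor of apoptosis cIAP2, had 991, 1155 and 1037 with GNE-781, against 2020.0, 1967 and 2497 with DMSO (−1.02 ± 0.14, limma adjusted p = 6.4e-06). The subunits NFKB1 (−0.12 ± 0.15), RELA (0.35 ± 0.16) and RELB (0.10 ± 0.16) were not called. NFKBIA, the inhibitor IκBα, rose against all DMSO libraries (0.45 ± 0.15, limma adjusted p = 0.042) with 1693, 1783 and 1773 with GNE-781, against 1054, 1079.9 and 1841 with DMSO, and turned to −0.07 against DMSO replicate 3 (adjusted p = 0.86). Without GNE-781 replicate 1 the list held 7 called genes in place of 11.

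Of 16 tested BCL2 family genes 7 fell and 1 rose, and 5 of the falls were called again against DMSO replicate 3. The falls against all DMSO libraries made up 43.8% of the family and the rise 6.25%, beside 8.81% and 7.82% of all genes tested. Members that block and members that promote apoptosis were among the falls. The rise was PMAIP1, which encodes the proapoptotic protein NOXA, with 364, 432 and 370.1 with GNE-781, against 233, 268 and 296 with DMSO (0.55 ± 0.16, limma adjusted p = 0.021). It was not called against DMSO replicate 3 (0.39, limma adjusted p = 0.35) and lost its call without GNE-781 replicate 2 (adjusted p = 0.11), DMSO replicate 1 (0.090) or DMSO replicate 2 (0.052). BCL2L1, whose main product BCL-XL blocks apoptosis, had 545, 658 and 597 in the GNE-781 libraries, against 1308, 1636 and 1826 in the DMSO libraries (−1.39 ± 0.17, limma adjusted p = 1.2e-06), and BCL2, which does the same, had 597, 658 and 633 with GNE-781, against 1091, 1106 and 1210.2 with DMSO (−0.85 ± 0.15, limma adjusted p = 1.9e-04). The proapoptotic BMF had 308, 314 and 374 with GNE-781, against 652, 559 and 765 with DMSO (−0.98 ± 0.17, limma adjusted p = 2.5e-04). The effector BAX had 137, 143 and 175 with GNE-781, against 208, 234 and 376 with DMSO (−0.80 ± 0.21, limma adjusted p = 0.0082) and lost its call without DMSO replicate 3 (−0.54, adjusted p = 0.055). MCL1, the antiapoptotic member that myeloma cells rely on, had 4084, 4411 and 4973 with GNE-781, against 5129.8, 5880.4 and 5633 with DMSO (−0.31 ± 0.14, limma adjusted p = 0.13). Without GNE-781 replicate 2 the family held 5 called genes in place of 8.

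Of 26 tested genes of ERK feedback and ERK output 6 fell and 2 rose, and 5 fell and 0 rose against DMSO replicate 3. Against all DMSO libraries 23.1% of this list fell and 7.69% rose, beside 8.81% and 7.82% of all genes tested. The share of rises was thus near that of all genes. SPRY1, a Sprouty inhibitor of receptor tyrosine kinase signaling, had 131, 132 and 136 in the GNE-781 libraries, against 681, 683 and 472 in the DMSO libraries. The GNE-781 libraries were close to one another and lay more than 3 fold below the lowest DMSO library, with a fall of −2.18 ± 0.25 (limma adjusted p = 8.8e-07; −1.82 against DMSO replicate 3, adjusted p = 0.0033). DUSP4, a phosphatase of ERK, had 945, 1112 and 1025 with GNE-781, against 1541, 1740.1 and 2275 with DMSO (−0.83 ± 0.17, limma adjusted p = 0.001), and CCND1, cyclin D1, had 158, 175 and 167 with GNE-781, against 448, 366 and 341 with DMSO (−1.19 ± 0.21, limma adjusted p = 2.4e-04). ETV5, an ETS factor induced by ERK, rose, with 653, 613 and 761 with GNE-781, against 320.0, 288 and 453 with DMSO (0.95 ± 0.16, limma adjusted p = 9.5e-05), but its call was not kept against DMSO replicate 3 (0.57, adjusted p = 0.078). Without GNE-781 replicate 2 the list held 5 called genes in place of 8.

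EGR1 had the largest rise among called genes whose groups did not overlap and whose mean level over the 15 libraries was at or above the median. EGR1 reached that level only through the groups in which it was high, its DMSO libraries lying below it. This zinc finger factor is induced within minutes of growth factor stimulation through serum response factor. It had 254, 167 and 277 in the GNE-781 libraries, against 32.7, 33.7 and 61.9 in the DMSO libraries. The lowest GNE-781 library was well above the highest DMSO library, DMSO replicate 3, and the log2 fold change was 2.44 ± 0.24 (limma adjusted p = 1.2e-07; 1.86 against DMSO replicate 3, adjusted p = 6.1e-04). FOS, which forms AP-1 with JUN, had 134, 136 and 176 with GNE-781, against 74.0, 84.4 and 64.3 with DMSO (0.99 ± 0.27, limma adjusted p = 0.012), and JUN had 2460.3, 2134 and 2332 with GNE-781, against 1347, 1493 and 1817 with DMSO (0.58 ± 0.14, limma adjusted p = 0.0049). The groups did not overlap in either, but neither was called against DMSO replicate 3 (limma adjusted p = 0.069 and 0.32), and FOS lost its call without GNE-781 replicate 3 (0.86, adjusted p = 0.070). FOS and JUN were chosen for mention after their values were seen. Other immediate early genes fell, among them JUNB (−0.66 ± 0.15, limma adjusted p = 0.0023), KLF2 (−0.98 ± 0.22, adjusted p = 0.003) and MAFF (−1.39 ± 0.19, adjusted p = 1.1e-05). Against all DMSO libraries 16.1% of the tested immediate early genes rose and 19.4% fell, beside 7.82% and 8.81% of all genes tested. Of the 31 tested, 5 rose and 6 fell, and 2 rose and 4 fell against DMSO replicate 3.

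Promoters are shown for 4 genes to set their changes beside the sequence at their starts. EGR1 and EIF5A, a translation factor described further on, were the largest rise and fall with a match to a motif searched among called genes at or above the median level whose groups did not overlap, and IRF4 and TNFRSF13B were chosen for the plasma cell lists after their values were seen. Each run is 300 bases long, 250 before and 50 after the start, from RefSeq on GRCh38.p14, read 5′ to 3′ on the gene's strand. EGR1 lies at chr5:138465229-138465528 on the plus strand, EIF5A at chr17:7306749-7307048 on the plus strand, IRF4 at chr6:391502-391801 on the plus strand and TNFRSF13B at chr17:16972069-16972368 on the minus strand. Capitals mark the serum response elements (CArG boxes) of EGR1, which begin at −105 and −83, the CCAAT boxes of EIF5A at −128 and TNFRSF13B at −83, and the TATA box of IRF4 at −32.
EGR1: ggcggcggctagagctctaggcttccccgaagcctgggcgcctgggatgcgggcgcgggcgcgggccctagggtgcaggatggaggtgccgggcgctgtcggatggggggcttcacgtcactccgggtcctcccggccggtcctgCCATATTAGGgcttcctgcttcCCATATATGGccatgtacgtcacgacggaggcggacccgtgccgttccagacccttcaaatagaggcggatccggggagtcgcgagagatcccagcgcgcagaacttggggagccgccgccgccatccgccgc
EIF5A: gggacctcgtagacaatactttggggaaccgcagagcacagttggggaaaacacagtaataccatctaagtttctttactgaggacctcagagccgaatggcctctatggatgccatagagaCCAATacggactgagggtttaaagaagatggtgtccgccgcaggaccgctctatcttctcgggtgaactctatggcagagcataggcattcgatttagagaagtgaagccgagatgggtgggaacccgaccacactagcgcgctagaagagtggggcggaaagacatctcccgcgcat
IRF4: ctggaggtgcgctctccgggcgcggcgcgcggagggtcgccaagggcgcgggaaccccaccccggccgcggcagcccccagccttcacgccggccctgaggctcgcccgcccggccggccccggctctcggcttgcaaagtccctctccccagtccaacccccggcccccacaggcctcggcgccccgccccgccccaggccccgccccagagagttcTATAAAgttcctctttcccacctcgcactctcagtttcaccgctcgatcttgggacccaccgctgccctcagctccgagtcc
TNFRSF13B: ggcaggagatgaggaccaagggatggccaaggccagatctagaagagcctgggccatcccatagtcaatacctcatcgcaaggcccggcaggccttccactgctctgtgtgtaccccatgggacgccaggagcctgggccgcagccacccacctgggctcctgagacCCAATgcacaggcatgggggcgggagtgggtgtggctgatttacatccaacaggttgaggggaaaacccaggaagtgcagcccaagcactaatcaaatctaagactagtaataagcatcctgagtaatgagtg
These matches describe the letters and do not show a factor bound there.

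The shares of promoters with each motif are given as descriptions. A 300-base window matched by symbol for 11120 of the 16104 genes tested, among them 1047 of those that fell and 979 of those that rose. The CArG box, searched by its usual consensus on both strands, was in 0.715% of the rises, 1.15% of the falls and 1.03% of all genes with a window. The E-box CACGTG, the site of MYC and MAX, was in 7.56% of the rises, 12.5% of the falls and 9.98% of all. CCAAT was in 42.6% of the rises, 37.6% of the falls and 37.0% of all, and the TATA box, TATAAA, in 5.31%, 6.49% and 6.03% in the same order. The octamer ATGCAAAT, read by OCT factors, was in 1.74% of the rises, 2.39% of the falls and 1.45% of all. The median GC content was 64.3%, 66.3% and 65.0%. Among the genes also called against DMSO replicate 3, with a window for 87 rises and 481 falls, the E-box was in 10.3% of the rises and 10.8% of the falls, the CArG box in 1.15% and 1.04%, and CCAAT in 42.5% and 34.9%. All motifs were searched on both strands, and the CArG box can overlap CCAAT by its ends.

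Other large falls came from genes of several kinds. RARA, the retinoic acid receptor α, had 388, 440.2 and 486 in the GNE-781 libraries, against 1515, 1989 and 1277 in the DMSO libraries (−1.84 ± 0.23, limma adjusted p = 3.3e-06; −1.55 against DMSO replicate 3, adjusted p = 0.006). CYP26A1, which degrades retinoic acid, had 343, 483 and 556 with GNE-781, against 1318, 1369 and 1050.0 with DMSO (−1.45 ± 0.29, limma adjusted p = 7.7e-04) and was not called against DMSO replicate 3 (−1.21, adjusted p = 0.098). HDAC9, a class IIa deacetylase that binds MEF2 factors, had 157, 129.7 and 190.1 in the GNE-781 libraries, against 527, 466 and 443 in the DMSO libraries (−1.60 ± 0.19, limma adjusted p = 1.2e-06; −1.49 against DMSO replicate 3, adjusted p = 0.0015). TP53INP1, a stress protein, had 305, 283 and 390.4 in the GNE-781 libraries, against 950.4, 1025 and 904 in the DMSO libraries (−1.57 ± 0.16, limma adjusted p = 1.2e-07). TYMP, thymidine phosphorylase, had 150.1, 111 and 152 with GNE-781, against 505, 494 and 342 with DMSO (−1.68 ± 0.21, limma adjusted p = 2.0e-06). C11orf96 and the small GTPase gene RAB36 fell by similar amounts (−1.80 ± 0.17 and −1.66 ± 0.16, limma adjusted p of 5.5e-08 for both), and all of TP53INP1, TYMP, C11orf96 and RAB36 were called lower against DMSO replicate 3.

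In 2 of the falls the DMSO libraries disagreed. EIF5A, a translation factor with a near-identical copy that could share its reads, had 1175, 1236 and 1722 in the GNE-781 libraries, against 8933, 6109 and 2872 in the DMSO libraries. DMSO replicate 3 held less than the other DMSO libraries by over 2 fold, and the fall was −1.99 ± 0.24 (limma adjusted p = 1.3e-06) against all of them but −1.08 against replicate 3 (adjusted p = 0.0057). SF3A2, a subunit of the splicing factor SF3a, had 249.5, 301 and 322 in the GNE-781 libraries, against 1239.7, 1153 and 674 in the DMSO libraries, with falls of −1.77 ± 0.19 (limma adjusted p = 3.7e-07) and −1.22 against replicate 3 (adjusted p = 0.0024).

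Among the rises, the actin genes TPM1 and LIMA1 stood out. TPM1, a tropomyosin that stabilises actin filaments, had 318, 255 and 254 in the GNE-781 libraries, against 68.2, 69.6 and 151 in the DMSO libraries. Like EGR1, TPM1 reached the median level only through groups in which it was high, its DMSO libraries lying below that level. DMSO replicate 3 held over 2 fold more than the other DMSO libraries, and the rise was 1.60 ± 0.23 (limma adjusted p = 1.6e-05) but 0.86 against that library (adjusted p = 0.036). LIMA1, which bundles actin filaments, had 605, 591 and 589 in the GNE-781 libraries, against 241, 177 and 303 in the DMSO libraries (1.34 ± 0.17, limma adjusted p = 3.0e-06; 0.97 against DMSO replicate 3, adjusted p = 0.0049). FLNA, a filamin that crosslinks actin, fell (−0.84 ± 0.16, limma adjusted p = 6.6e-04), with 1361, 1763 and 1596 with GNE-781, against 2564, 2925 and 2908 with DMSO. The list of actin genes and targets of serum response factor did not move as one: 5 of 33 rose and 7 fell, and 3 rose and 5 fell against DMSO replicate 3. Against all DMSO libraries 15.2% of that list rose and 21.2% fell, beside 7.82% and 8.81% of all genes tested. Without GNE-781 replicate 1 the list held 6 called genes in place of 12.

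FANCL, a ubiquitin ligase of the Fanconi anemia pathway, had 742, 661 and 728 in the GNE-781 libraries, against 271, 234 and 416 in the DMSO libraries (1.25 ± 0.17, limma adjusted p = 1.2e-05; 0.77 against DMSO replicate 3, adjusted p = 0.026). PLIN3, a coat protein of lipid droplets, had 832, 792 and 779 in the GNE-781 libraries, against 328, 316 and 438 in the DMSO libraries (1.16 ± 0.16, limma adjusted p = 8.6e-06; 0.87 against DMSO replicate 3, adjusted p = 0.013). RALGAPA2 (1.25 ± 0.19), SMYD3 (1.24 ± 0.22), IFFO1 (1.19 ± 0.19) and BMT2 (1.17 ± 0.19) were called in both comparisons, with adjusted p of 0.027, 0.039, 0.023 and 0.044 against DMSO replicate 3. Their fold changes against it were smaller, from 0.80 to 0.95. HMGN2 (1.19 ± 0.26), DYNC1I2 (1.19 ± 0.20) and CCDC28A (1.18 ± 0.17) rose against all DMSO libraries and were not called against replicate 3 (limma adjusted p = 0.066, 0.058 and 0.062). The glucose transporter SLC2A3, with 195, 199 and 181 with GNE-781, against 65.3, 63.3 and 108 with DMSO, rose in both comparisons (1.31 ± 0.20, limma adjusted p = 4.7e-05; 0.82 against DMSO replicate 3, adjusted p = 0.039), as did the hexokinase HK1 (1.18 ± 0.21, limma adjusted p = 3.0e-04; 0.97, adjusted p = 0.03).

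Proliferation genes rose in part against all DMSO libraries. Of 40 tested G2/M and mitotic genes there were 10 rises (25%) and 3 falls (7.5%), beside 7.82% and 8.81% of all genes tested. Their median was 0.20 beside 0.07 over all genes. Against DMSO replicate 3 alone it was 0.03 beside −0.11. NDC80, a kinetochore protein, had 1149, 984 and 968 with GNE-781, against 484, 548 and 694 with DMSO (0.86 ± 0.17, limma adjusted p = 9.4e-04; 0.57 against DMSO replicate 3, adjusted p = 0.17). TOP2A, the topoisomerase of dividing cells, had 23965, 23374 and 25091 with GNE-781, against 12836, 13433 and 23623 with DMSO, so that DMSO replicate 3 lay within the range of the GNE-781 libraries. MYBL2, a transcription factor of the cell cycle, fell instead, with 3518, 3562 and 4017 with GNE-781, against 7689.9, 8685 and 6214 with DMSO (−1.01 ± 0.13, limma adjusted p = 5.8e-06; −0.75 against DMSO replicate 3, adjusted p = 0.0081). Of 48 genes of DNA replication and G1/S 8 rose (16.7%) and 1 fell (2.08%), with a median of 0.15, and of 0.03 against DMSO replicate 3. The G2/M list held 6 called genes without DMSO replicate 2, 7 without GNE-781 replicate 1 and 8 without GNE-781 replicate 2, and the G1/S list held 3 without DMSO replicate 1 and 5 without GNE-781 replicate 2. TOP2A (0.60 ± 0.17, limma adjusted p = 0.017) was not called when GNE-781 replicate 1 or 3 was left out (limma adjusted p = 0.057 and 0.060), nor when DMSO replicate 1 or 2 was (limma adjusted p = 0.11 and 0.12, with fold changes of 0.44 and 0.47).

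In PSMC1 the DMSO libraries fell far apart. PSMC1, an ATPase subunit of the proteasome, had 1308, 1155 and 1261 in the GNE-781 libraries, against 351, 306 and 1306 in the DMSO libraries. DMSO replicate 3 was as high as the GNE-781 libraries and over 3 fold higher than the other DMSO libraries. The rise of 1.25 ± 0.27 (limma adjusted p = 0.002) turned to −0.08 against that library. The SE of the rise pools the spread of all 5 groups and understates how far apart these DMSO libraries lie. Of 31 proteasome subunits 6 rose (19.4%) and 3 fell (9.68%), and of 74 cytosolic ribosomal proteins 7 rose and 7 fell (9.46% each). Of all genes tested 7.82% rose and 8.81% fell, so the ribosomal shares lay near those of all genes. Against DMSO replicate 3 none of either list rose at this threshold and 1 of each fell. Ribosomal protein genes have near-identical pseudogenes that could take part of their reads. Without DMSO replicates 1 or 2, or GNE-781 replicate 1, the proteasome list held 5, 4 and 4 called genes in place of 9, and the ribosomal list held from 2 (without DMSO replicate 2) to 9 (without GNE-781 replicate 3) in place of 14, with 4 without GNE-781 replicate 1 and 6 without GNE-781 replicate 2.

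**Figure D4:**
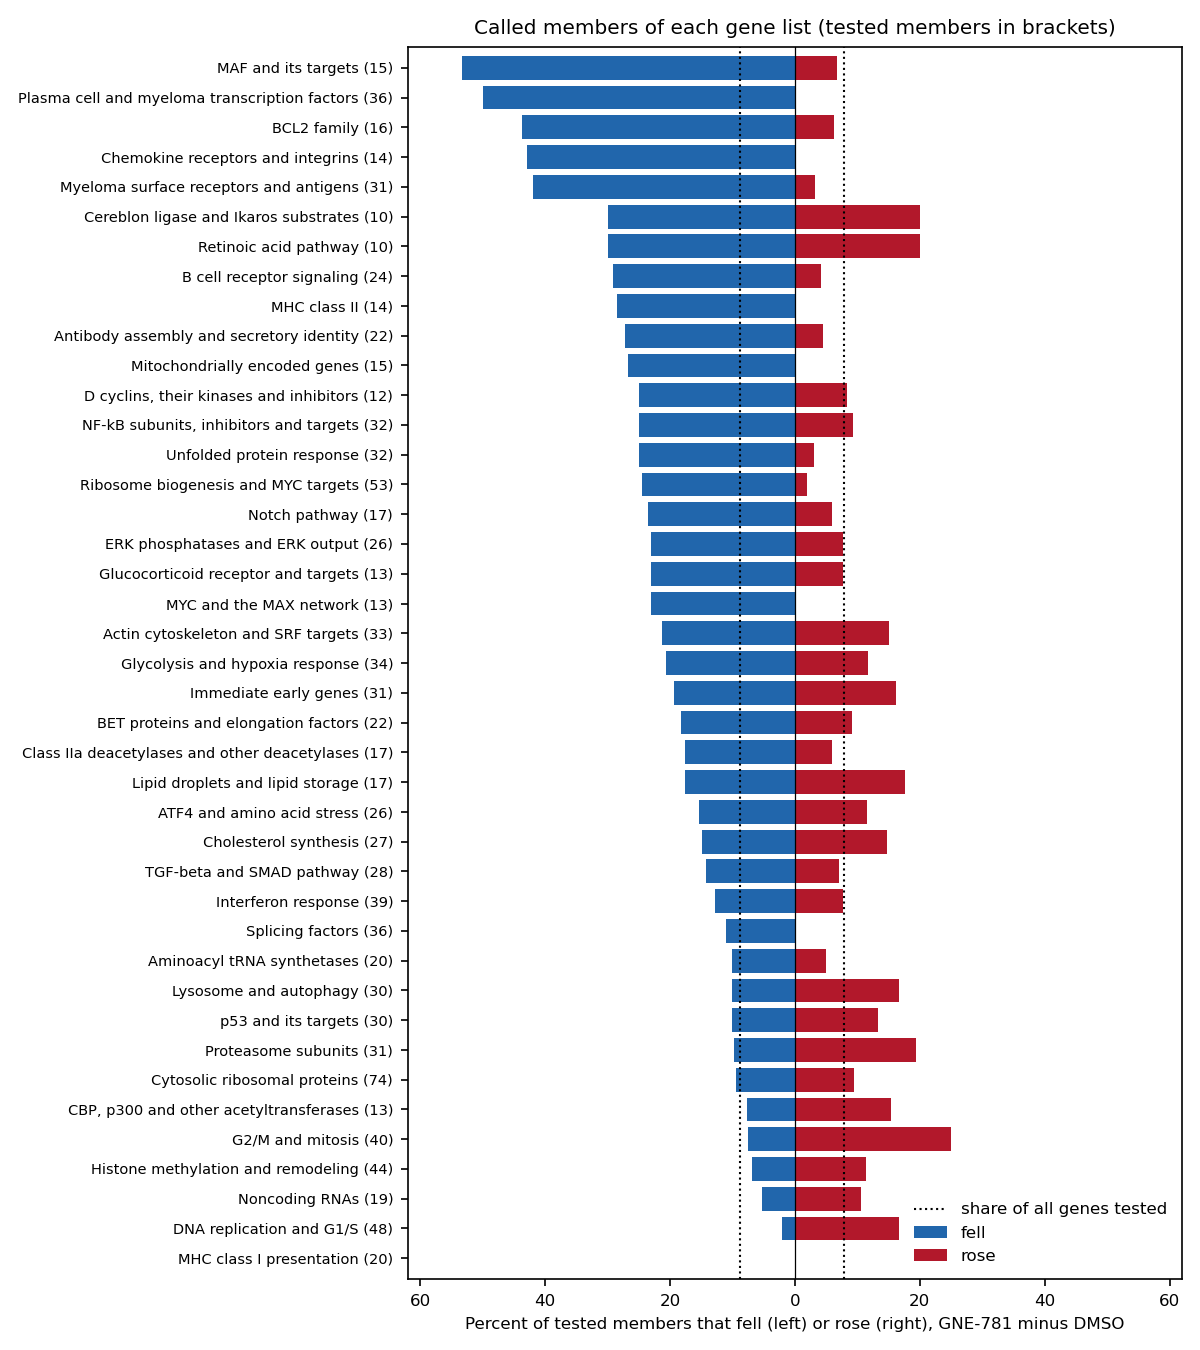
Percent of the tested members of 41 gene lists that fell (blue, left) or rose (red, right) with GNE-781 against all DMSO libraries, with the number tested in brackets. Dotted lines give the shares of all 16104 genes, 8.81% lower and 7.82% higher. The transcription factors of plasma cells, with 18 of 36 lower and 0 higher, lie near the top, and the class I presentation genes, with 0 called, at the bottom. The lists were chosen with earlier results of these data known.

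Antigen presentation differed between the MHC classes in its counts. Of 14 tested class II genes 4 fell and 0 rose, and 2 fell against DMSO replicate 3. CIITA, the coactivator that controls class II genes, had 105, 86.8 and 72.9 with GNE-781, against 224, 240.4 and 280.4 with DMSO (−1.49 ± 0.29, limma adjusted p = 6.9e-04; −1.67 against DMSO replicate 3, adjusted p = 0.018). CD74, the invariant chain, had 13596, 13934 and 15802 with GNE-781, against 21983, 19492 and 21788 with DMSO (−0.55 ± 0.14, limma adjusted p = 0.0062). Against all DMSO libraries the class II falls made up 28.6% of their list, beside 8.81% of all genes tested. None of the 20 class I presentation genes was called in either comparison, B2M having 28166, 35838 and 33514 with GNE-781, against 39864, 45501 and 47663 with DMSO (−0.45 ± 0.18, limma adjusted p = 0.086), but without DMSO replicate 3 there were 3 calls. The difference between the classes was not tested.

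No fall was called in the genes of the targeted proteins. CREBBP had 1999.9, 1886 and 1648 in the GNE-781 libraries, against 1314, 1081 and 1396 in the DMSO libraries, and its rise of 0.55 ± 0.15 (limma adjusted p = 0.0094) was not called against DMSO replicate 3 (0.40, adjusted p = 0.27). It was also lost when GNE-781 replicate 1 (0.49, limma adjusted p = 0.062) or DMSO replicate 2 (0.44, limma adjusted p = 0.080) was left out. EP300 had 1559, 1689 and 1198 in the GNE-781 libraries, against 1309.8, 1167 and 1102 in the DMSO libraries (0.30 ± 0.16, limma adjusted p = 0.21). The BET bromodomain genes BRD2 (0.28 ± 0.14) and BRD3 (0.32 ± 0.14) were not called (limma adjusted p = 0.15 and 0.12). GNE-781 acts on the proteins, which these libraries do not measure.

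Set against A-485, the inhibitor of the catalytic domain at the same dose and time, GNE-781 gave 161 calls (1.0%) with no DMSO library in the fold change. Of these 44 were higher (0.273%) and 117 lower (0.727%). This comparison and that with DMSO share the 3 GNE-781 libraries. Without each GNE-781 or A-485 library in turn, 40 of the 117 lower genes and 6 of the 44 higher genes kept their call every time, and the counts of calls were 57, 72 and 79 without GNE-781 replicate 1, 2 and 3, and 111, 76 and 103 without A-485 replicate 1, 2 and 3. The A-485 libraries had 15.02% to 16.12% of reads from mitochondrially encoded genes and 19194 to 19810 genes at equal depth, close to the GNE-781 libraries in both.

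The genes lower with GNE-781 than with A-485 included members of the plasma cell lists. Of the 36 transcription factors 6 were lower and 0 higher, of the 31 surface genes 6 lower and 0 higher, and of the 14 chemokine receptors and integrins 4 lower and 0 higher. IRF4 had 691, 962 and 946 with GNE-781, against 2364, 1631 and 1667 with A-485 (−1.12 ± 0.19, limma adjusted p = 0.0017). POU2AF1 had 975, 1179 and 1224 with GNE-781, against 2797, 2268 and 2385 with A-485 (−1.14 ± 0.15, limma adjusted p = 3.2e-05). In both genes the A-485 libraries lay more than 1.5 fold above the highest GNE-781 library. TNFRSF17 had 3874, 3907 and 3089 normalized read counts with A-485, above all of its GNE-781 libraries and below all of its DMSO libraries (−1.19 ± 0.15 for GNE-781 minus A-485, limma adjusted p = 1.9e-05). PTK2B had 3789, 4082 and 3813 with A-485, again between the other groups (−0.92 ± 0.13, limma adjusted p = 1.1e-04).

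The 6 largest falls against A-485, among called genes at or above the median level whose groups did not overlap, were TP53INP1 (−1.41 ± 0.16), CCR1 (−1.27 ± 0.13), MGLL (−1.25 ± 0.20), BLNK (−1.21 ± 0.18), CXCR3 (−1.20 ± 0.21) and TNFRSF17, with limma adjusted p from 1.1e-06 to 0.0017. CCR1 had 3067, 3139.6 and 3392 with GNE-781, against 8481, 7788 and 6901 with A-485. MGLL, the monoglyceride lipase, had 192, 176 and 198 with GNE-781, against 499, 458 and 395 with A-485, and BLNK had 248, 229.6 and 233 with GNE-781, against 671, 471 and 523 with A-485. The groups did not overlap in any of the 6. Each of these calls, and those of IRF4, PRDM1, POU2AF1, ARID5B, TNFRSF13B, SDC1, IL6R, ITGA4, PTPN6 and PTK2B, was kept in all 6 fits that left out a library. The calls of MAF (−0.59 ± 0.14, limma adjusted p = 0.038), BCL2 (−0.68 ± 0.15, adjusted p = 0.015) and CCR2 (−1.73 ± 0.38, adjusted p = 0.015) were not as stable: MAF kept its call in 0 of the 6 fits, with adjusted p of 0.071 to 0.25, and BCL2 and CCR2 each in 1.

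Among the higher genes, EGR1 had 254, 167 and 277 with GNE-781, against 61.7, 30.3 and 44.3 with A-485 (2.35 ± 0.24, limma adjusted p = 1.1e-06), and the A-485 libraries overlapped those of DMSO. ETV5 had 653, 613 and 761 with GNE-781, against 403, 374 and 308 with A-485 (0.90 ± 0.16, limma adjusted p = 0.0017), and NEAT1, the long noncoding RNA that scaffolds paraspeckles, had 13156, 11323 and 11259.8 with GNE-781, against 6646, 7490.1 and 5738 with A-485 (0.85 ± 0.15, limma adjusted p = 0.0027). All 3 kept their call in each of the 6 fits. The named rises KCNS3, DOP1B and B4GALT4, with limma adjusted p of 0.03, 0.007 and 0.039, kept it in 2, 4 and 1.

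Other genes that fell with GNE-781 were not shown to differ between the inhibitors. NFKB2 had 726, 719.8 and 671 with GNE-781, against 685, 715 and 946 with A-485, with an interval of −0.44 to 0.17 for the log2 difference (limma adjusted p = 0.78). TYMP had 150.1, 111 and 152 with GNE-781, against 148, 140.5 and 183 with A-485 (interval −0.62 to 0.23, limma adjusted p = 0.76). SLC7A5 had 713, 796 and 817 with GNE-781, against 806, 918 and 1178 with A-485 (interval −0.64 to 0.03, limma adjusted p = 0.46). MYC had 334, 433 and 533 with GNE-781, against 1095, 588 and 816 with A-485, lower in each GNE-781 library than in each A-485 library, but the interval of −1.60 to −0.24 came with an adjusted p of 0.22. These intervals are 95% intervals for single genes.

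**Figure D5:**
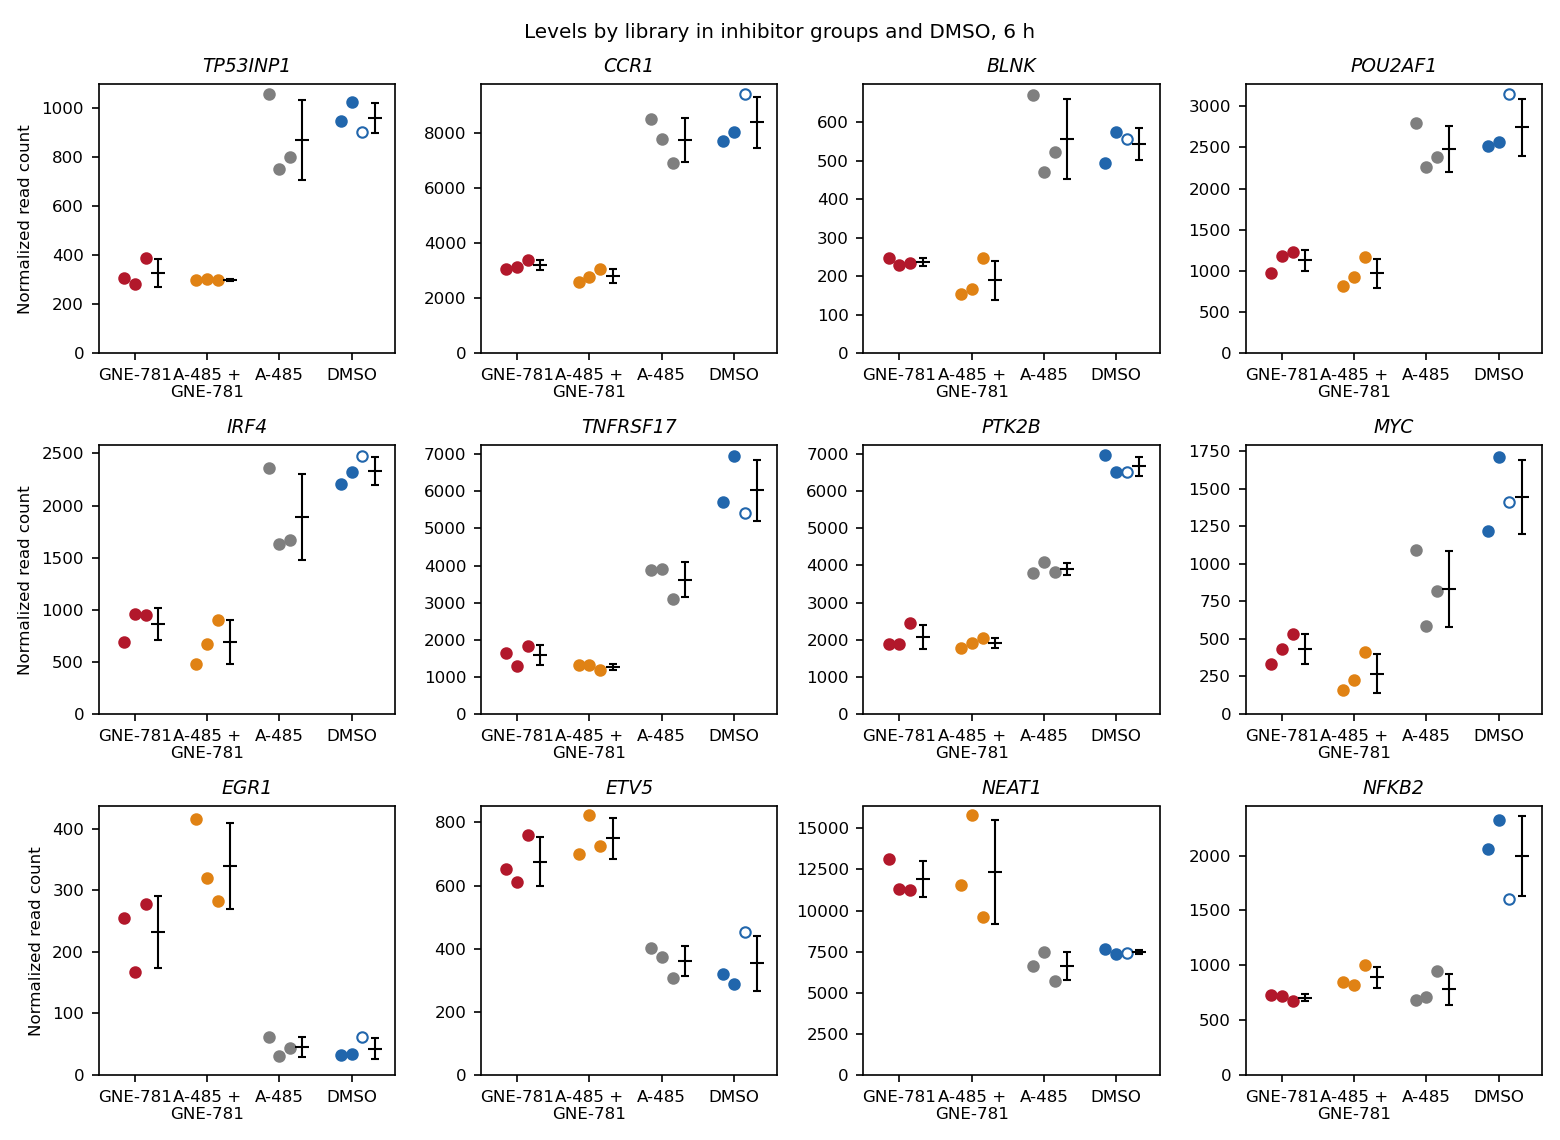
Normalized read counts of 12 genes in each library with GNE-781 (red), A-485 and GNE-781 together (orange), A-485 (grey) and DMSO (blue, with DMSO replicate 3 open), with the mean and SD of 3 libraries. In all panels except NFKB2 the GNE-781 and A-485 libraries do not overlap.

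GNE-781 alone was also set against the combination with A-485. At a limma adjusted p below 0.05 there were 0 calls of 16104 genes (0.0%), with a smallest adjusted p of 0.9997 and 494 genes at an unadjusted p below 0.05 (3.07%). edgeR also gave 0 calls. DESeq2 gave 5, and without combination replicate 3 limma gave 1. The median 95% interval of a gene was ± 0.44 on the log2 scale, without adjustment for the number of genes. Smaller differences were mostly not detectable, and larger ones could also go uncalled by limma, as for PIM1 below. The 0 calls therefore do not show that the groups are equal. MYC had 334, 433 and 533 with GNE-781 and 162, 229.7 and 412 with the combination, with overlapping groups and an interval of 0.09 to 1.46 for GNE-781 minus the combination. IRF4 had 691, 962 and 946 with GNE-781 and 484, 676 and 905 with the combination (interval −0.03 to 0.76). EGR1 had 254, 167 and 277 with GNE-781 and 416, 320.3 and 282 with the combination (interval −1.06 to −0.06), all of the combination libraries being higher than the highest GNE-781 library. These intervals are not adjusted for the number of genes, and none of the 3 differences passed the adjustment.

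The 5 DESeq2 calls were UBE2T, SCD, CCDC86, PIM1 and MACC1, named after the counts were seen, and all were higher with GNE-781 alone. PIM1, a survival kinase, had 707, 684 and 1086 normalized read counts with GNE-781 and 406, 426 and 594 with the combination. The limma difference was 0.78 ± 0.19 (adjusted p = 0.9997), and that of the other 4 ran from 0.47 to 0.56. The gene called without combination replicate 3 was IGFBP3, a binding protein of insulin-like growth factors, at 1.23 (limma adjusted p = 0.031).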

How the data were processed

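RNA of 15 MM.1S libraries (5 groups of 3) was read by 3′ mRNA sequencing. The authors deposited 1 signal value per gene and library, which they call normalized read counts, and how they were normalized is not stated. hg19 is the build in the submitters' processing notes. The aligner, counter and annotation are not given in the sources used here, nor is the use of strand. The table has 47459 gene rows with values, 1 truncated row without and 0 ERCC rows, and 96.5% of IDs matched a symbol. Each value was a whole multiple of 1 step per library (100% within 0.01 read), so reads were recovered and CPM computed from them.

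Genes at 5 or more in at least 3 libraries were kept (16104). limma 3.58.1 (R 4.3.3) with trend was fitted to log2(value + 1) over all 5 group means, with Benjamini-Hochberg adjustment over all genes tested and a threshold of 0.05. Fold changes are on this scale and understate those of low genes. DMSO replicate 3 alone, TMM and median-ratio scaling, quantile normalization, pseudocounts of 0.25 and 5, other filters, a replicate block, each library left out, edgeR 4.0.16 (3505 calls against DMSO) and DESeq2 1.42.0 (3771) on recovered reads were tried. The fit was tested on simulated data with 1 spread for all groups, which does not cover DMSO libraries that vary more. Members and lists were chosen with earlier results of these data known. Named genes are the 12 largest rises and falls with groups apart and a level at or above the median, up to 5 members per list by smallest p, CREBBP, EP300, MYC and IRF4, and the 6 largest rises and falls against each other inhibitor group. A gene can reach that level only through the groups in which it is high, as EGR1 and TPM1 did. A few other list members are named for contrast, chosen after their values were seen. No label says that the libraries came from separate cultures, so the error behind each p-value may be technical.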

Additional observations from a re-analysis of the deposited data

How the results depend on the processing

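Against DMSO, 2679 genes were called. With DMSO replicate 3 alone as control the count was 883, and 954 with TMM scaling added, an alternative chosen after seeing the data. Leaving out 1 library at a time gave 1467 to 3689. TMM scaling gave 3607 calls, median-ratio scaling 3563, quantile normalization 3544, edgeR 3505 and DESeq2 3771, while a fit of only the groups compared gave 2191. Of 240 named genes 200 were called, 112 of which lost the call under at least 1 alternative. PSMC1 (−0.075), NFKBIA (−0.074) and DTX3L (−0.062) reversed against DMSO replicate 3 alone, and no other called named gene reversed under the alternatives run.

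Against A-485, 161 genes were called, 393 with TMM scaling, 395 with median-ratio scaling, 388 with quantile normalization, 466 with only the groups compared, 413 with edgeR, 763 with DESeq2 and 57 to 111 with 1 library left out. Against the combination 0 were called, 5 with DESeq2 and 0 to 1 with 1 library left out. The cause of these shifts was not tested.

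A replicate block gave 2317 calls against DMSO and 107 against A-485. GNE-781 and DMSO libraries of the same number correlated in their deviations at 0.07, −0.04 and −0.13, so the numbers are not taken to pair the libraries.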

Other observations

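Secretory genes of plasma cells moved in part. TXNDC5, a disulfide isomerase of the endoplasmic reticulum, had 406, 591 and 447 with GNE-781, against 1228, 1438 and 1256 with DMSO (−1.46 ± 0.27, limma adjusted p = 4.1e-04), and MZB1, a chaperone of antibody assembly, had 4543, 4491 and 4946 with GNE-781, against 7699, 7897 and 7442 with DMSO (−0.72 ± 0.12, limma adjusted p = 7.2e-05). Both were also lower than in DMSO replicate 3. Of 22 genes of antibody assembly 6 fell and 1 rose, 4 falls against DMSO replicate 3 alone, and the calls numbered 3 without DMSO replicate 2, 2 without GNE-781 replicate 1 and 4 without GNE-781 replicate 2. Of 32 genes of the unfolded protein response 8 fell and 1 rose (3 fell and 0 rose against DMSO replicate 3), with 4 calls without DMSO replicate 2 or GNE-781 replicate 1. Against all DMSO libraries 27.3% of the antibody assembly genes fell and 4.5% rose. Of the unfolded protein response genes 25% fell and 3.1% rose, beside 8.81% and 7.82% of all genes tested. ERN1, the stress sensor that splices XBP1 mRNA, had 706, 734 and 815 with GNE-781, against 1437, 1257 and 1415 with DMSO (−0.86 ± 0.14, limma adjusted p = 7.6e-05).

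Of 20 tested aminoacyl tRNA synthetases 1 rose and 2 fell, and of 26 genes of ATF4 and amino acid stress 3 rose and 4 fell (0 and 3 with DMSO replicate 3 as control), beside 7.82% and 8.81% of all genes tested. FARSA, a subunit of phenylalanyl-tRNA synthetase, had 2024, 2134 and 2469 with GNE-781, against 4364, 5522 and 4173 with DMSO (−1.08 ± 0.13, limma adjusted p = 2.2e-06; −0.92 with DMSO replicate 3 as control, adjusted p = 0.0023). The other synthetase that fell was VARS1 (−0.71 ± 0.12, limma adjusted p = 1.3e-04). ASNS, asparagine synthetase, rose (0.94 ± 0.17, limma adjusted p = 2.7e-04) and was not called with DMSO replicate 3 as control (0.47, adjusted p = 0.2).

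HES6, a member of the HES family that includes Notch targets, had 673, 648 and 793 with GNE-781, against 1685, 1747 and 1702 with DMSO (−1.28 ± 0.14, limma adjusted p = 4.3e-07; −1.28 with DMSO replicate 3 as control, adjusted p = 4.2e-04). Of 17 Notch genes 4 fell and 1 rose, 3 and 1 against DMSO replicate 3, with 3 calls without GNE-781 replicate 3. Against all DMSO libraries 23.5% of the Notch genes fell and 5.88% rose, beside 8.81% and 7.82% of all genes tested. SMAD7, which feeds back on TGF-β receptors, had 159, 231 and 186 with GNE-781, against 442, 347 and 420.0 with DMSO (−1.08 ± 0.23, limma adjusted p = 0.0014). Of 28 genes of the TGF-β pathway 4 fell (14.3%) and 2 rose (7.14%), beside 8.81% and 7.82% of all genes tested. CDK6, the kinase partner of D cyclins, had 2215, 2634 and 2502 with GNE-781, against 3435, 3731 and 4849 with DMSO (−0.70 ± 0.15, limma adjusted p = 0.0022). CDKN2D, an inhibitor of that kinase, had 539.6, 459 and 642 with GNE-781, against 274, 301 and 322 with DMSO (0.86 ± 0.16, limma adjusted p = 3.6e-04), and both were called with DMSO replicate 3 as control.

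Among interferon response genes 5 of 39 fell (12.8%) and 3 rose (7.69%), near the 8.81% and 7.82% of all genes tested. Their median was −0.25 against DMSO replicate 3, beside −0.11 over all genes. BST2, the antiviral tetherin, had 3975, 2889 and 3721 with GNE-781, against 5126, 5893 and 6364 with DMSO (−0.72 ± 0.13, limma adjusted p = 4.2e-04). The calls numbered 5 without DMSO replicate 1, GNE-781 replicate 1 or GNE-781 replicate 2. In glycolysis 7 of 34 genes fell (20.6%) and 4 rose (11.8%). ALDOA, an aldolase, had 3849, 3457 and 4115 with GNE-781, against 5235, 6344 and 6584 with DMSO (−0.67 ± 0.13, limma adjusted p = 5.3e-04). Cholesterol synthesis had 4 falls and 4 rises among 27 genes, 14.8% each, beside 8.81% and 7.82% of all genes tested. Its median was −0.19 with DMSO replicate 3 as control, beside −0.11 over all genes. NR3C1, the glucocorticoid receptor, had 2221, 2288 and 2350.0 with GNE-781, against 3067, 3199.6 and 3717 with DMSO (−0.54 ± 0.12, limma adjusted p = 0.0022). Of the 15 mitochondrially encoded genes 4 fell (26.7%) and 0 rose, beside 8.81% and 7.82% of all genes tested. Their calls numbered 2 without DMSO replicate 1 or GNE-781 replicate 2 and 7 without DMSO replicate 3.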
